A study of Sorghum bicolor with 16 samples.

Results

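The 3 genes described here are sugar genes whose expression differed with salt in the same direction in roots of both sweet sorghum strains of the study: SORBI_3007G219900 and SORBI_3006G122400, lower with salt, and SORBI_3001G373600, higher with salt. They are 3 of the 29033 genes in the deposited expression table, and all 3 were among the 16280 genes tested, those whose mean FPKM reached 1. FPKM is an expression level scaled by transcript length and by library size. The genes were chosen by their measured salt differences, out of those that passed limma's test (adjusted p under 0.05) in the same direction in both strains. Of the 16280 tested genes, 5 passed as higher and 7 as lower with salt in both strains. A further 4 passed in both strains in opposite directions. Limma called 0.473% of all tested genes in Roma and 0.491% in M-81E. Since the choice used them, the salt differences of the 3 genes are given below as a description, without a test.

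The study mapped N6-methyladenosine (m6A), a methyl mark on messenger RNA, in roots at the 3-leaf phase. The groups were salt-treated Roma and its control, and salt-treated M-81E and its control. Roma is labelled salt-sensitive and M-81E salt-tolerant. Each group had 2 libraries enriched with an m6A antibody (IP) and 2 unenriched input libraries, labelled as biological replicates, 16 samples in all. The sources used here do not give the salt dose, the length of treatment or the number of plants per sample. The expression table has 2 columns per group, and the labels place these with the IP samples without saying whether IP or input fragments were counted. A difference in expression and a difference in enrichment can therefore not be told apart in these values, and in whole roots fewer cells of a type and less RNA per cell cannot be told apart either.

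Raffinose is a trisaccharide that plants make by transferring a galactosyl group from galactinol to sucrose. Raffinose synthase catalyses this transfer, stachyose synthase extends the chain by a further galactose, and alpha-galactosidases remove galactose again. Raffinose and its relatives are known as compatible solutes and as transported or stored sugars. Sugar transporters of the membrane move sugars between cells and between compartments of a cell.

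Across libraries the summed FPKM ranged from 325987 to 377097, and 14477 to 16006 genes reached an FPKM of 1. Read totals were not used here, so the depth behind single FPKM values is unknown. M-81E control replicate 2 had the lowest summed FPKM and the fewest genes at FPKM 1, and the differences of the 3 genes that use it are also given without it. Of 191 genes whose annotation names root hairs, the Casparian strip or suberin, 100 had a mean FPKM of at least 1. Their summed FPKM was 4552 and 4546 in Roma salt, 4457 and 4506 in Roma control, 3482 and 3902 in M-81E salt and 3619 and 2779 in M-81E control. Of 105 genes annotated to photosystems, light harvesting or chlorophyll binding, which mark green tissue, 23 reached that mean, with sums of 265.4 and 272.3 in Roma salt against 193.7 and 203.0 in Roma control, and of 240.9 and 267.7 in M-81E salt against 304.0 and 311.0 in M-81E control. The green-tissue sum was higher with salt in Roma and lower with salt in M-81E. Its part in the differences of the 3 genes was not tested.

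The working descriptions of the 3 genes come from 1 term each among their Gene Ontology (GO) annotations, and the table says more. SORBI_3007G219900 carries 4 GO terms: hydrolysis of O-glycosyl compounds, cytoplasm, carbohydrate metabolic process and galactinol-sucrose galactosyltransferase activity. SORBI_3006G122400 carries 8: cytoplasm, plasmodesma, response to oxidative stress, response to karrikin, transfer of glycosyl groups, raffinose catabolic process, raffinose alpha-galactosidase activity and galactinol-sucrose galactosyltransferase activity. Although the first is described as a glycosyl hydrolase and the second as a glycosyltransferase, both have the same orthology entry, K06617, and the same enzyme number, EC 2.4.1.82, which is that of raffinose synthase. Both are assigned to the galactose metabolism pathway. Genes with this entry are called raffinose synthase genes below, after the entry and not after a measured activity. SORBI_3006G122400 also carries the terms of raffinose breakdown named above. Raffinose catabolic process is carried by 5 genes in all, and raffinose alpha-galactosidase activity by 6. Whether SORBI_3006G122400 makes or breaks down raffinose is not settled by these annotations. SORBI_3001G373600 carries 3 terms: carbohydrate transport, integral component of membrane and sugar transmembrane transporter activity. It has no orthology entry, enzyme number or pathway in the table, and the description of all 3 reads hypothetical protein.

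The raffinose synthase gene SORBI_3007G219900 had an FPKM of 2.11 and 2.01 in Roma salt, against 13.8 and 23.7 in Roma control. In M-81E it had 4.81 and 4.16 with salt, against 41.4 and 29.7 in control. Both salt libraries lay below both control libraries in each strain, as for 32.3% of all tested genes in Roma and 19.4% in M-81E, and the control libraries differed more from each other than the salt libraries did. The mean FPKM was 9.10-fold lower with salt in Roma and 7.92-fold lower in M-81E, and on the scale of log2(FPKM + 1), on which all log2 values here are given, the differences were -2.64 ± 0.30 and -2.72 ± 0.30 (limma, SE). Among the genes tested in the same library, its level stood above 19.0% and 17.9% of genes in Roma salt and above 66.7% and 79.0% in Roma control. In M-81E it stood above 46.4% and 40.7% with salt and above 88.8% and 84.4% in control.

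The second gene with the raffinose synthase entry, SORBI_3006G122400, had an FPKM of 4.0 and 5.3 in Roma salt, against 24.9 and 39.8 in Roma control. M-81E libraries had 4.04 and 3.99 with salt, against 19.9 and 20.4 in control. The groups did not overlap in either strain, and the levels with salt in the 2 strains lay close together. The mean was 6.96-fold lower with salt in Roma and 5.02-fold lower in M-81E (log2 differences of -2.53 ± 0.27 and -2.08 ± 0.27, SE).

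The sugar transporter SORBI_3001G373600 had an FPKM of 34.4 and 39.8 in Roma salt, against 7.27 and 6.76 in Roma control. The M-81E values were 3.16 and 2.21 with salt, against 0.0354 and 0.178 in control. Every salt library lay above the control libraries of its strain, as for 27.2% of all tested genes in Roma and 18.3% in M-81E, but both M-81E salt libraries lay below both Roma control libraries. The log2 difference was 2.25 ± 0.22 in Roma and 1.73 ± 0.22 in M-81E (SE), larger in Roma, while the mean FPKM was 5.29-fold higher in Roma and 25.2-fold higher in M-81E. The ratio in M-81E rests on control values under an FPKM of 0.2: it was 15.1-fold without M-81E control replicate 1 and 75.8-fold without replicate 2. With a pseudocount of 0.1 in place of 1 the log2 differences were 2.38 in Roma and 3.82 in M-81E. Which strain had the larger difference thus depended on the scale.

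**Figure D1:**
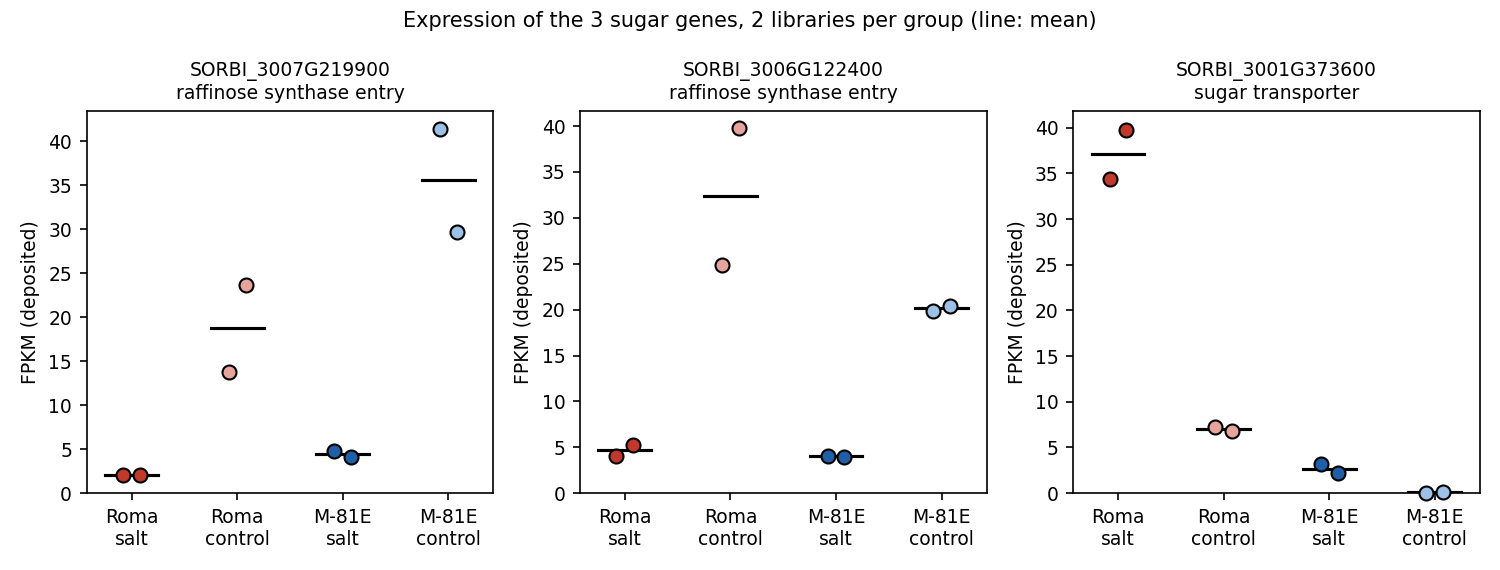
Deposited FPKM (y axis) of the 3 genes in Roma salt, Roma control, M-81E salt and M-81E control (x axis), with 1 point per library and a line at the mean of the 2. The salt points of SORBI_3007G219900 and SORBI_3006G122400 all sit at 5.3 or lower and the control points at 13.8 or higher, while SORBI_3001G373600 reaches 34.4 and 39.8 in Roma salt and stays at 3.16 or lower in M-81E.

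The limma adjusted p-values by which the genes were chosen lay between 0.0179 and 0.0311 in Roma and between 0.0326 and 0.0464 in M-81E. Since the choice used these values, they show how near the threshold it lay and are no test of the 3 genes. The raffinose synthase gene SORBI_3002G075800 lay just outside the threshold of 0.05, at 0.0557 in Roma and 0.0610 in M-81E. With quantile scaling it passed in Roma (log2 difference 1.84, limma adjusted p = 0.0467). Without M-81E control replicate 2 the log2 differences in M-81E were -2.95 for SORBI_3007G219900, -2.06 for SORBI_3006G122400 and 1.82 for SORBI_3001G373600. Of all genes tested, limma called 0.332% higher and 0.141% lower with salt in Roma, and 0.209% higher and 0.283% lower in M-81E.

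The choice of genes did not use the difference between strains itself, which limma tested over all 16280 genes. Both came from the same fit, with the same group means and the same estimated spread for each gene. A gene with a small estimated spread passes more easily in either, so the strain p-values of the 3 genes are not independent of the choice. The transporter SORBI_3001G373600 was higher in Roma than in M-81E, with a log2 difference of 2.86 ± 0.22 without salt (SE, n = 2 each; limma adjusted p = 0.00234) and of 3.38 ± 0.22 under salt (limma adjusted p = 0.00159). In FPKM its mean was 65.8-fold higher in Roma without salt and 13.8-fold higher under salt. The ratio without salt was 39.5-fold without M-81E control replicate 1 and 198-fold without replicate 2. Without replicate 2 the log2 difference without salt was 2.95 (limma adjusted p = 0.00701). The transporter's FPKM was higher in all 4 Roma libraries than in all 4 M-81E libraries. Of all tested genes, 42.7% were higher in Roma without overlap without salt, and 48.1% under salt. The share that separated all 8 libraries by strain was not counted. The transporter was the only gene of the 3 to pass. Among all tested genes 8.35% were called higher and 3.76% lower in Roma without salt, and 6.0% higher and 2.41% lower under salt. Quantile scaling gave 696 higher and 819 lower calls without salt, and 503 higher and 528 lower under salt. The median gene was itself 0.30 higher in Roma without salt and 0.29 higher under salt, so the transporter stood 2.56 and 3.17 above M-81E once quantile scaling had brought these medians to 0.0292 and 0.0483 (limma adjusted p = 0.00566 and 0.00329).

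The raffinose synthase gene SORBI_3007G219900 had lower values in Roma than in M-81E in both treatments, without overlap, but did not pass. Its log2 difference was -0.91 ± 0.30 without salt (limma adjusted p = 0.0996) and -0.84 ± 0.30 under salt (limma adjusted p = 0.135). Leaving out M-81E control replicate 2 gave -1.15 without salt (limma adjusted p = 0.0679), and 0.64 for SORBI_3006G122400 (limma adjusted p = 0.209). SORBI_3006G122400 had higher values in Roma without salt, again without overlap, at 0.62 ± 0.27 (limma adjusted p = 0.169). Under salt its libraries overlapped between strains (0.16 ± 0.27, limma adjusted p = 0.716), and that difference turned to -0.133 with quantile scaling. Of all tested genes, 16.8% were lower without overlap and 42.7% higher without overlap in Roma without salt, and 19.5% were lower and 48.1% higher without overlap under salt.

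The order of the 2 raffinose synthase genes was not the same in the libraries of both strains. The FPKM of SORBI_3006G122400 divided by that of SORBI_3007G219900 was 1.89 and 2.64 in Roma salt and 1.80 and 1.68 in Roma control, against 0.839 and 0.957 in M-81E salt and 0.481 and 0.685 in M-81E control. SORBI_3006G122400 was the more abundant of the pair in all 4 Roma libraries and the less abundant in all 4 M-81E libraries. This ratio was chosen after the values had been seen and was not tested. The sources used here do not say how fragments shared between related gene copies were assigned.

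The table annotates 7 genes as raffinose synthases (K06617), and 6 of them were tested. Besides SORBI_3007G219900 and SORBI_3006G122400, 3 of the other 4 tested genes had positive salt differences in both strains and 1 had negative ones, and none of the 4 passed limma's test in either strain (3 in each strain had an unadjusted p under 0.05). SORBI_3002G075800 had an FPKM of 22.4 and 26.1 in Roma salt, against 5.99 and 6.94 in Roma control, a log2 difference of 1.76 ± 0.24 (SE; limma adjusted p = 0.0557). Its M-81E values were 5.11 and 3.62 with salt, against 0.799 and 0.396 in control (1.74 ± 0.24, limma adjusted p = 0.0610). The direction of its values was opposite to that of SORBI_3007G219900 and SORBI_3006G122400, and in Roma salt it was the most abundant gene of the 7.

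SORBI_3003G052300 had an FPKM of 4.85 and 5.41 in Roma salt, against 0.592 and 0.710 in Roma control (log2 difference 1.89, limma adjusted p = 0.243). In M-81E it had 8.09 and 4.70 with salt, against 3.58 and 0.463 in control (1.48, limma adjusted p = 0.359). SORBI_3001G044800 had 7.61 and 8.34 in Roma salt, against 3.96 and 3.67 in Roma control, and in M-81E 1.94 and 1.24 with salt, against 0.790 and 0.263 in control. These 3 genes were higher with salt without overlap in both strains, as were 27.2% of all tested genes in Roma and 18.3% in M-81E. SORBI_3010G057300, the most abundant of the 7 in M-81E control, had 20.2 and 21.8 in Roma salt, against 32.1 and 38.1 in Roma control, and its M-81E libraries overlapped, at 44.8 and 31.5 with salt against 84.6 and 42.0 in control. SORBI_3010G057400 was too low to be tested and did not exceed an FPKM of 1.2 in any library.

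Summed over the 7 genes, FPKM was 61.7 and 69.6 in Roma salt against 82.4 and 114 in Roma control, and 69.8 and 49.7 in M-81E salt against 152 and 93.5 in M-81E control. SORBI_3007G219900 and SORBI_3006G122400 together made up 9.91% and 10.5% of this sum in Roma salt, against 47% and 55.8% in Roma control. In M-81E they made up 12.7% and 16.4% with salt, against 40.3% and 53.6% in control. Without them the sum was 55.6 and 62.2 in Roma salt against 43.7 and 50.4 in Roma control, and 60.9 and 41.5 in M-81E salt against 90.9 and 43.4 in M-81E control. The sum of the remaining 5 genes was thus higher in both Roma salt libraries than in both controls, whereas the M-81E groups overlapped. Since the pair was chosen for being lower with salt, its lower share is a description of the choice.

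**Figure D2:**
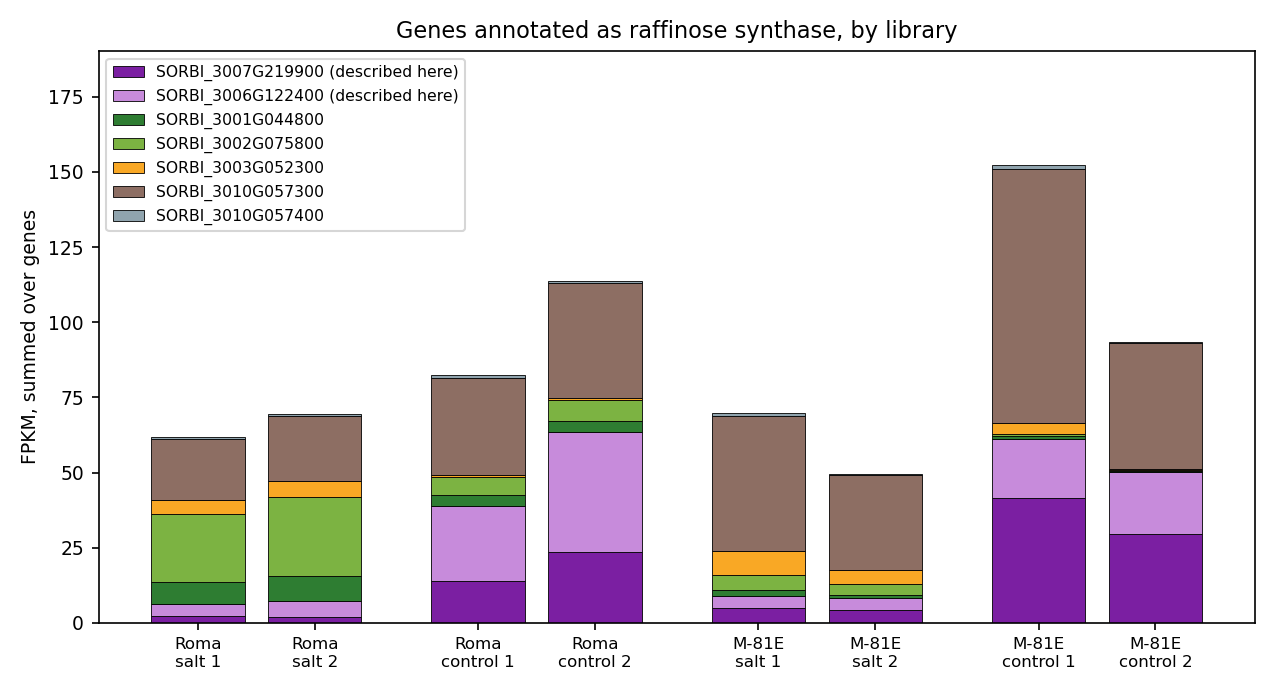
FPKM of the 7 genes annotated as raffinose synthase, stacked (y axis), in each of the 8 libraries (x axis), with salt left of control in each strain. The purple segments, SORBI_3007G219900 and SORBI_3006G122400, make up 9.91 to 16.4% of the bar in salt libraries and 40.3 to 55.8% in control libraries, and the light green segment of SORBI_3002G075800 is tallest in Roma salt.

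Of the steps after raffinose, the stachyose synthase entry SORBI_3005G210100 (EC 2.4.1.67) had an FPKM of 3.34 and 3.91 in Roma salt, against 0.595 and 0.295 in Roma control (log2 difference 1.68 ± 0.22, SE; limma adjusted p = 0.0520). Its M-81E values were 1.27 and 1.07 with salt, against 0.477 and 0.221 in control (0.69 ± 0.22, limma adjusted p = 0.313). The alpha-galactosidase entry SORBI_3008G063600 (EC 3.2.1.22) had 8.69 and 9.83 in Roma salt against 6.33 and 6.18 in Roma control, and its M-81E libraries overlapped, at 3.36 and 3.49 with salt against 3.12 and 5.64 in control. In the whole list of raffinose and galactose words, 0 of the 7 tested genes other than the chosen pair passed limma's test for salt in either strain, and 4 in each strain had an unadjusted p under 0.05. The median salt difference of these 7 was 0.90 in Roma and 0.69 in M-81E, beside -0.03 and -0.05 over all tested genes. In Roma 1 of the 7 passed with quantile scaling, and 2 passed with only the 2 Roma groups fitted and without either M-81E control library. In M-81E 3 of the 7 passed without M-81E control replicate 1.

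Between strains, 2 of these 7 genes were called higher in Roma without salt and 4 under salt, and none lower. SORBI_3002G075800 differed by 2.23 ± 0.24 without salt (SE, n = 2 each; limma adjusted p = 0.00612) and by 2.24 ± 0.24 under salt (limma adjusted p = 0.00633). SORBI_3001G044800 differed by 1.68 ± 0.26 without salt (limma adjusted p = 0.0153) and by 1.80 ± 0.26 under salt (limma adjusted p = 0.0142). The other 2 passed under salt, the stachyose synthase entry at 1.09 (limma adjusted p = 0.0405) and the alpha-galactosidase entry at 1.21 (limma adjusted p = 0.0465), and neither passed after quantile scaling (limma adjusted p = 0.0804 and 0.0968). The pair chosen for its salt difference did not pass in this contrast, in which 12.1% of all tested genes passed without salt and 8.42% under salt.

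The sugar transmembrane transporter term is carried by 22 genes, 14 of them tested, SORBI_3001G373600 included. By FPKM this gene ranked 6 of 22 in both Roma salt libraries, against 8 of 22 in both Roma control libraries. In M-81E it ranked 12 of 22 in both salt libraries, against 21 and 18 of 22 in the control libraries. It made up 6% and 6.81% of the term's summed FPKM in Roma salt against 1.59% and 1.80% in Roma control, and 0.756% and 0.558% in M-81E salt against 0.00842% and 0.0914% in M-81E control. Even where it was highest, 5 other genes of the term were more abundant.

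**Figure D3:**
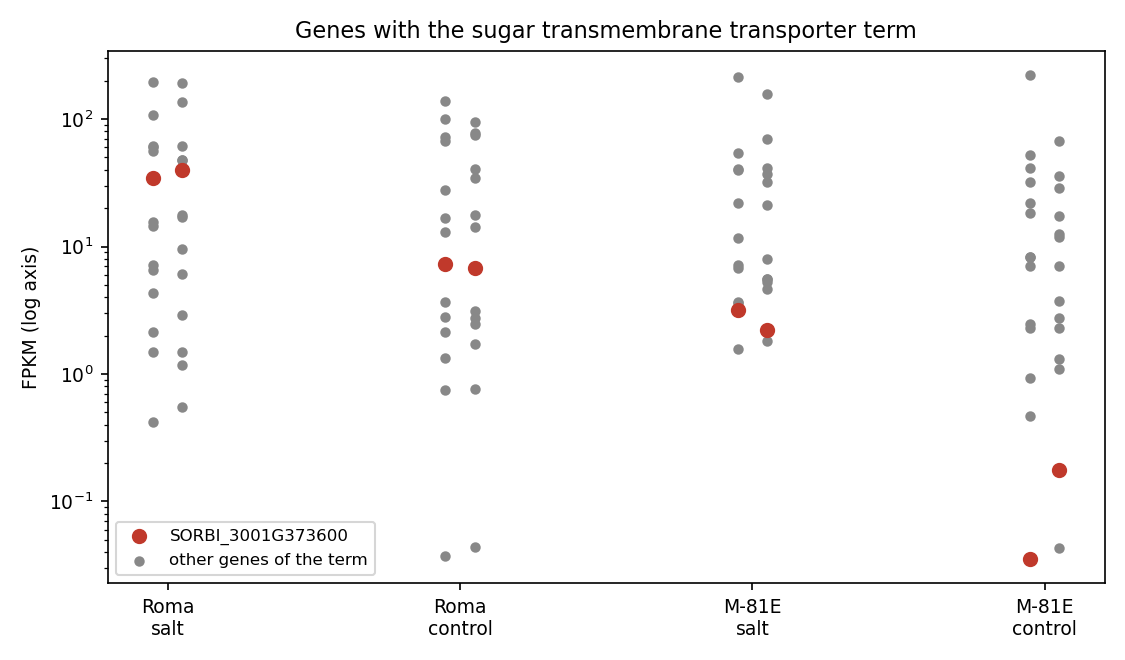
FPKM on a log axis (y axis) of the 14 tested genes with the sugar transmembrane transporter term in the 4 groups (x axis), 1 point per library. SORBI_3001G373600 (red) lies at 34.4 and 39.8 in Roma salt, among the upper genes, and at 0.0354 and 0.178 in M-81E control, near the bottom.

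None of the other 13 tested genes of the term passed limma's test for salt in either strain, and with unadjusted p under 0.05 there were 3 in Roma and 3 in M-81E. In Roma the largest positive difference among them was that of SORBI_3003G015200, with an FPKM of 6.58 and 6.13 in salt against 2.14 and 1.71 in control (log2 difference 1.34 ± 0.19, SE; limma adjusted p = 0.0652). Its M-81E libraries overlapped, at 7.20 and 7.95 with salt against 8.34 and 7.09 in control. SORBI_3001G377600 had 7.19 and 9.58 in Roma salt against 2.78 and 3.10 in Roma control, and 1.56 and 2.16 in M-81E salt against 0.469 and 0.0432 in M-81E control (log2 differences 1.24 in Roma and 1.2 in M-81E; limma adjusted p = 0.151 and 0.195 in that order). The median salt difference of the 13 was 0.50 in Roma and 0.42 in M-81E. Between strains, 4 of the 13 were called higher and 3 lower in Roma without salt, and 3 higher and 1 lower under salt, where SORBI_3003G377700 no longer passed after quantile scaling (limma adjusted p = 0.0685), so a higher level in Roma was not shared by the whole term. The calls were 53.8% of the 13 genes without salt and 30.8% under salt, beside 12.1% and 8.42% of all tested genes. Of those called, SORBI_3005G123500 had a log2 difference near that of SORBI_3001G373600 without salt, 2.73 ± 0.42 (SE; limma adjusted p = 0.0154).

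**Figure D4:**
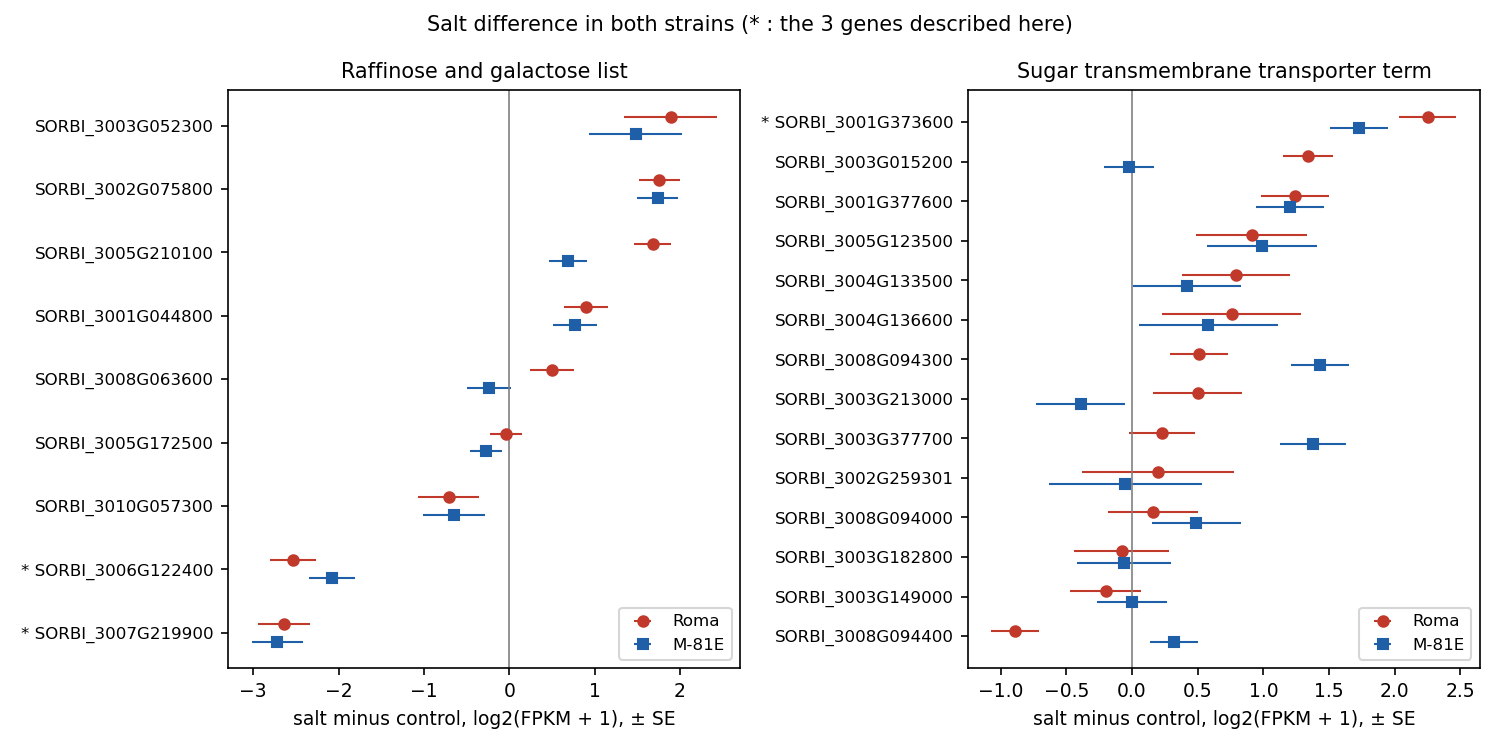
Salt minus control in log2(FPKM + 1) with its SE (x axis) for the 9 tested genes of the raffinose and galactose list (left) and the 14 of the sugar transmembrane transporter term (right), in Roma (circles) and M-81E (squares). SORBI_3007G219900 and SORBI_3006G122400 lie between -2.72 and -2.08, apart from the other 7 genes of their list, of which the lowest is -0.71, and SORBI_3001G373600 lies at 2.25 and 1.73.

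Wider sugar gene lists, drawn by words in the annotation, were counted without the 3 genes. Over all tested genes 0.473% were called for salt in Roma and 0.491% in M-81E, and 11.8% in Roma and 12.8% in M-81E had an unadjusted p under 0.05, so counts of 0 or 1 in the smaller lists do not set them apart. Of 99 tested sugar transport genes, 0 passed limma's test in either strain (14 in Roma and 17 in M-81E at an unadjusted p under 0.05), and of 21 trehalose genes 0 passed as well (5 and 4 in that order). Of 94 genes for hydrolysis of O-glycosyl compounds, 1 passed in Roma and 0 in M-81E (13 and 17 in that order at an unadjusted p under 0.05). Their median salt difference was 0.03 in Roma and 0.35 in M-81E, beside -0.03 and -0.05 over all tested genes. In Roma 50 were positive and 44 negative, and in M-81E 66 and 28. The gene that passed in Roma was SORBI_3006G032800, an extracellular hydrolase entry. It had an FPKM of 7.90 and 5.42 in Roma salt against 0.778 and 0.589 in Roma control (log2 difference 2.17, limma adjusted p = 0.0404). It did not pass when any 1 salt library or Roma control library was left out, nor with quantile scaling (limma adjusted p from 0.0386 to 0.222 over the 13 alternatives that tested it, 4 of them passed). Of 235 glycosyltransferase genes, 1 passed in Roma and 0 in M-81E (40 and 32 in that order at an unadjusted p under 0.05). The gene that passed in Roma was SORBI_3002G334200, with cellulose and mannan synthase terms. It had 1.95 and 1.94 in Roma salt against 11.2 and 9.60 in Roma control (-1.95, limma adjusted p = 0.0257). It passed under 6 of 14 alternatives (limma adjusted p from 0.0206 to 0.181), and not when a salt library or a Roma control library was left out. In M-81E SORBI_3002G334200 had 4.26 and 5.50 with salt against 8.63 and 10 in control. Without M-81E control replicate 1 the counts in M-81E were 29 of the sugar transport, 10 of the trehalose, 27 of the hydrolase and 43 of the glycosyltransferase genes, when 3082 of all genes were called.

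Of the 113 other tested genes of the galactose metabolism pathway, to which the raffinose synthase pair belongs, 1 passed limma's test in Roma and 0 in M-81E. At an unadjusted p under 0.05 there were 19 in Roma and 27 in M-81E. SORBI_3009G171400, an aldose reductase entry (EC 1.1.1.21), an enzyme that reduces sugars to sugar alcohols, had 17.4 and 19.8 in Roma salt against 0.429 and 0.689 in Roma control (log2 difference 3.65 ± 0.20, SE; limma adjusted p = 0.00334). In M-81E it had 2.24 and 1.97 with salt against 0.721 and 0.576 in control. Its call in Roma passed under 13 of 14 alternatives, and not with a filter of mean FPKM 5 or more (limma adjusted p = 0.0544). Of 433 other tested genes with sucrose in their annotation, the starch and sucrose pathway included, 2 were called higher and 3 lower with salt in Roma, and 1 lower in M-81E. Over the alternatives the count ranged from 1 to 17 in Roma, and in M-81E from 0 to 112, the highest without M-81E control replicate 1. SORBI_3010G261100, with the enzyme number of pectinesterase and an enzyme inhibitor term, was among the lower ones in both strains (limma adjusted p = 0.0137 in Roma and 0.0113 in M-81E). It passed under 9 of the 13 alternatives that tested it in Roma, and not when any Roma library was left out. In M-81E it passed under 11 of 13, and not with only the 2 groups compared (limma adjusted p = 0.146) or without M-81E salt replicate 1. It was listed at 0 in all 4 salt libraries, at 5.03 and 6.08 in Roma control and at 8.80 and 5.87 in M-81E control. SORBI_3008G013800, with kinase and carbohydrate binding terms but the enzyme number of alpha-amylase, was listed at 17.1 and 14.4 in Roma salt and at 0 in the other 6 libraries. The beta-amylase SORBI_3001G293800, a starch-degrading enzyme, had 4.08 and 2.52 in Roma salt against 48.2 and 68.4 in Roma control, and 47.8 and 29.0 in M-81E salt against 49.6 and 31.4 in M-81E control. Its log2 difference in Roma was -3.79 (limma adjusted p = 0.0202). This call passed under 10 of 14 alternatives, and not when any Roma library was left out.

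Of the 3 genes, 1 had an m6A peak, and in 1 of the 4 peak lists. The lists hold 1 value per peak from the authors and no replicates, so peaks were not tested. SORBI_3006G122400 had a peak in the Roma salt list at chr6:48852708-48852916, in the 3' UTR, with coordinates as the files give them. The sources used here do not name the genome build. The gene spans chr6:48852708-48856765 on the minus strand, so the peak of 209 bp reached the annotated 3' end of the gene, 3849 bp from the transcription start. Its fold enrichment of IP over input was 94.8, above that of 89.9% of the peaks in the list, whose median was 21.4, and the median of the 3' UTR peaks of the list was 24.8. Its p-value was 5e-42, with a log10 false discovery rate of -40.1, and 26.8% of the list's peaks had a larger p, so it ranked high by fold and low by p.

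No peak overlapped this position in the Roma control, M-81E salt or M-81E control lists. The gene's FPKM was 4.0 and 5.3 in Roma salt, where the peak was listed, against 24.9 and 39.8 in Roma control, where none was, and M-81E salt had a similar level to Roma salt, 4.04 and 3.99, without a listed peak. The Roma salt list is also the longest, with 12080 peaks against 5949 in Roma control, and with 10255 in M-81E salt against 10219 in M-81E control. It covered 57.0% of tested genes, against 31.0% in the Roma control list, and the M-81E salt list 49.4% against 47.7% in the M-81E control list. Whether the longer list has a part in the peak's presence was not tested.

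SORBI_3007G219900 and SORBI_3001G373600 had no peak in any of the 4 lists, so no coordinates are given for them. The highest FPKM of SORBI_3007G219900 was 41.4, in M-81E control, and that of SORBI_3001G373600 was 39.8, in Roma salt. Whether expression level has a part in the absence of their peaks was not tested. Of the 6 tested raffinose synthase genes, 4 had a peak in Roma salt against 1 in Roma control, and 2 in M-81E salt against 1 in M-81E control. The shares of all tested genes in these lists were 57.0% and 31.0% in Roma and 49.4% and 47.7% in M-81E. A difference from these shares was not tested. SORBI_3001G044800 had an exon peak in 3 lists, with a fold enrichment of 79.9 in Roma salt against 9.91 in Roma control, and of 8.48 in M-81E salt. SORBI_3010G057300 had a 3' UTR peak in both salt lists, at 6.84 in Roma and 4.04 in M-81E, and an exon peak at 1.76 in M-81E control. SORBI_3002G075800 had an exon peak of 3.16 in Roma salt. Of the 4 raffinose synthase genes with a peak in Roma salt, SORBI_3006G122400 had the highest fold.

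Among the other genes of the raffinose and galactose list, SORBI_3005G172500, annotated to the regulation of raffinose synthesis, had a 3' UTR peak that reached the annotated end of the gene in all 4 lists, at a fold of 70.6 in Roma salt against 49.8 in Roma control and of 46.8 in M-81E salt against 25 in M-81E control. The alpha-galactosidase entry SORBI_3008G063600 had a 3' UTR peak that also reached the annotated end of the gene, at a fold of 77.6 in Roma salt and 39.6 in M-81E salt, and no peak in either control list. Of the 14 tested genes of the sugar transmembrane transporter term, 4 had a peak in Roma salt against 1 in Roma control, and 2 in M-81E salt against 2 in M-81E control. Over all tested genes the shares were 57.0% and 31.0% in Roma and 49.4% and 47.7% in M-81E, with salt first. SORBI_3004G136600 was the gene of the term with a peak in all 4 lists, in the 5' UTR, at 12.3 in Roma salt against 11 in Roma control and at 4.84 in M-81E salt against 19.7 in M-81E control.

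The genes whose expression followed that of each of the 3 most closely were taken as the 3 with the highest Pearson correlation of log2(FPKM + 1) over the 8 libraries, among 9185 genes whose mean FPKM reached 5 and that no library listed at 0. The 8 libraries share strain, treatment and group, so these values are a description. Closest to SORBI_3007G219900 were SORBI_3001G297900, annotated to biotin synthesis (r = 0.991), SORBI_3001G368800, a diphthine synthase entry (r = 0.983), and SORBI_3004G016800, a protein kinase entry (r = 0.981). SORBI_3001G297900 had the same order of libraries (Spearman's rho = 1.000) but a smaller range, with 5.3 and 4.66 in Roma salt against 8.89 and 9.96 in Roma control, and 6.47 and 6 in M-81E salt against 12.3 and 12.3 in M-81E control. Closest to SORBI_3006G122400 were SORBI_3001G059100, a glutamate dehydrogenase entry (r = 0.962), SORBI_3001G177900, a kinesin motor entry (r = 0.960), and SORBI_3009G172500, an alanine-glyoxylate transaminase entry (r = 0.955). By Spearman's rho these 3 were at places 180, 500 and 285 of the 9185. Closest to SORBI_3001G373600 were SORBI_3006G064800 and SORBI_3004G309800, neither with an activity among its GO terms, and SORBI_3010G254900, a nuclear pore entry, each at r = 0.994. By Spearman's rho these were at places 5, 94 and 42, so none of them was among the first 3.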

How the data were processed

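Roots of 2 sorghum strains with and without salt were sequenced as m6A IP and input libraries from fragments of about 100 nt. The authors deposited FPKM per gene, per the file headers, and 4 peak lists. In these, fold enrichment (a ratio of IP over input) and the p-value of each peak, which stands in the deposited score column, are the authors' own, as are log10 of that p and of its false discovery rate, in 2 further columns. HISAT2, StringTie, edgeR, ChIPseeker, FastQC and cutadapt are listed, with no role, in the submitters' processing notes. The sources used here do not give the peak caller, genome build or pooling of replicates. Columns were matched to samples by the sample descriptions.

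Log2(FPKM + 1) of the 16280 genes whose mean FPKM reached 1 was fitted with limma 3.58.1 in R 4.3.3, with 1 mean per group, the spread pooled over 4 groups, eBayes with a trend and Benjamini-Hochberg adjustment over all tested genes (threshold 0.05). With 2 replicates per group and no read totals, this pooled spread sets the precision. The labels do not pair the replicates, and no block was used. On simulated data for Roma minus M-81E without salt, with 16280 genes, 8% of 50 genes changed by a log2 of 1 were recovered, 52% at 2, 76% at 3 and 84% at 4, and 6 of 116 calls were false. The simulated noise was normal and independent between libraries, and all other genes had equal group means. In the data 1971 genes were called in this contrast, so the simulated rates do not describe it. An overlap of 1 bp or more made 2 peaks shared. Python 3.11.15, pandas 2.3.3, numpy 2.4.6 and matplotlib 3.10.9 were used.

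The 3 genes and the gene lists were chosen with earlier results of these data known. Lists were drawn by words in the annotation, and those of an exact annotated term or pathway were added after the data had been seen. Named were the 3 genes, the 3 genes most like each, and up to 4 genes per list called for salt. Genes of the raffinose list and of the transporter term were named beyond this rule, with their values seen. The alternatives tried were no filter or a mean FPKM of 5 or more, a pseudocount of 0.1, quantile scaling, a replicate block, only the 2 groups compared, leaving out each library, and for peaks a false discovery rate under 0.001, an overlap of at least 0.5 of each peak and the kind of annotation.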

Additional observations from a re-analysis of the deposited data

Results flagged for a closer look

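SORBI_3008G094400, a gene of the sugar transmembrane transporter term, had every salt library on opposite sides of its controls in the 2 strains. Its FPKM was 56.6 and 48.1 in Roma salt against 101 and 94.6 in Roma control (log2 difference -0.89), and 40 and 36.9 in M-81E salt against 32.3 and 28.7 in M-81E control (0.32). Neither salt difference passed (limma adjusted p = 0.146 in Roma and 0.486 in M-81E). The gene was found by looking through the genes named here. Of all tested genes, 32.3% were lower with salt without overlap in Roma, and 18.3% were higher in M-81E. The share with both was not counted. The difference between the strains' responses was not tested.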

How the results depend on the processing

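The strain difference of SORBI_3001G373600 passed under every alternative run (without salt it was 5.2 with a pseudocount of 0.1). With 1 library left out it ranged from 2.77 to 2.95 without salt (limma adjusted p from 0.00507 to 0.0301) and from 3.19 to 3.56 under salt. That of SORBI_3007G219900 passed under none (-1.28 to -0.547 and -0.925 to -0.754 with 1 library left out). That of SORBI_3006G122400 passed under none either: it ranged from 0.294 to 0.949 without salt, and under salt it turned to -0.133 with quantile scaling and to -0.00448 without Roma salt replicate 2 (highest 0.33). The salt differences kept their sign. With a pseudocount of 0.1 they moved to -2.30 (SORBI_3006G122400) and 3.82 (SORBI_3001G373600) in M-81E and to -3.07 (SORBI_3007G219900) and 2.38 (SORBI_3001G373600) in Roma, and quantile scaling gave -2.01 for SORBI_3006G122400 in M-81E. With 1 library left out they ranged in M-81E from -2.95 to -2.49, -2.09 to -2.06 and 1.54 to 1.91, and in Roma from -3.01 to -2.28, -2.86 to -2.21 and 2.14 to 2.35, for SORBI_3007G219900, SORBI_3006G122400 and SORBI_3001G373600 in that order.

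Counts over all genes moved more. Between strains 1971 genes were called without salt and 1370 under salt. A filter of mean FPKM 5 gave 1047 and 654, only the 2 groups compared gave 296 without salt, and a replicate block gave 803 under salt. For salt, 80 genes were called in M-81E and 77 in Roma: the filter gave 34 and 30, the replicate block 22 and 44, only the 2 groups compared 3 and 217, and no filter 130 in Roma. With 1 library left out the counts ranged from 257 to 4189 and from 228 to 4134 between strains, and from 32 to 3082 in M-81E and from 26 to 312 in Roma for salt. The counts were highest without M-81E control replicate 1, which leaves replicate 2 as the lone M-81E control, assumed to vary like the other groups; without replicate 2 the counts between strains were 3862 without salt and 4114 under salt. Without a Roma control library 257 and 267 were called without salt, and without a Roma salt library 228 and 255 under salt. Of the 7 other raffinose and galactose genes, 3 were called for salt in M-81E without M-81E control replicate 1, as were 4 of the 13 other transporter-term genes, and 0 of either under any other alternative. Quantile scaling changed the share of calls higher in Roma from 68.9% to 45.9% without salt and from 71.3% to 48.8% under salt. Deviations of same-numbered replicates correlated between groups at -0.038 to 0.038, so no shared deviation was seen. The labels do not say whether same-numbered replicates belong together. The peak of SORBI_3006G122400 stayed in 1 list under the 3 peak alternatives, and the other genes stayed without one. The cause of these changes was not tested.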
